A study of Mus musculus with 6 samples.

Results

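The immediate early genes Fos, Fosb, Jun, Junb, Jund, Egr1, Atf3, Ier2, Dusp1 and Zfp36 were examined in CD11b+ cells isolated from mouse brain. The 10 genes were taken by their symbols from the deposited expression table, which lists 19225 genes, and all 10 were found. The study examined how the cannabinoid receptor CB1, encoded by Cnr1, shapes the response of the brain and its myeloid cells to chronic social stress, and these libraries came from stress-naïve male mice labelled 3 months old. There were 3 libraries labelled Cnr1+/+ and 3 labelled Cnr1-/-, with 1 mouse behind each. The Cnr1-/- mice carried the constitutive Cnr1 tm1Zim allele in all cells, labelled d/d, and their Cnr1+/+ littermates were labelled wt/wt, both on a C57BL6/J background. Brains were perfused with PBS and dissociated with a glass douncer in the cold, myelin was removed on Percoll, and the cells were captured with CD11b MicroBeads and snap frozen. Every library therefore came from isolated cells, and levels before isolation were not measured. The comparison asks whether these genes stood at different levels under the 2 genotype labels.

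Immediate early genes are transcribed within minutes of a stimulus from factors already present in the cell, such as serum response factor (SRF) and CREB, without new protein synthesis. JUN proteins pair with FOS, ATF or other JUN proteins to form the AP-1 transcription factors, EGR1 is a zinc finger transcription factor, DUSP1 dephosphorylates MAP kinases and tristetraprolin, the product of Zfp36, marks AU-rich mRNAs for decay. In microglia this programme is known as a response to tissue dissociation as well as to stimuli in the living animal, and the transcripts are short-lived.

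The targeted gene was checked first. Cnr1 was listed at 0 cpm (reads scaled to the size of each library, as CPM) in all 3 libraries labelled Cnr1+/+ and at 1.41, 1.21 and 1.79 cpm in replicates 1, 2 and 3 labelled Cnr1-/-. This order goes against the labels. The allele disrupts the coding region and reads come from the 3′ end of transcripts, so the values are no check of the deleted part, and why Cnr1 was at 0 in the Cnr1+/+ libraries was not tested. Directions below are those of the labels. In each library most values are multiples of a smallest step, the worth of a single read, from which TMM-scaled library sizes of 7708793 to 10723861 reads were derived, and 60 of the 60 values of the 10 genes came out as whole reads within a tolerance of 0.02 reads. A gene listed at 0 could still have had 3 reads (0.280 to 0.389 cpm, by library), a limit for counting error only. The microglial markers Cx3cr1 (4743 to 5648 cpm) and Csf1r (2749.9 to 3441 cpm) were abundant in every library. The library labelled Cnr1-/- replicate 2 stood apart by its summed neutrophil markers (4153 cpm against 308 to 573 cpm in the others, 12 genes) and erythrocyte markers (2342 against 136 to 237 cpm). Its summed monocyte markers were also higher (107 against 27.6 to 35.3 cpm), and 68.4 cpm of this was Chil3. Plac8 was highest in this library too (7.27 against 2.15 to 4.41 cpm). Ccr2, the most abundant of the 6 markers, stood at 17.3 cpm, inside the 15.4 to 23.4 cpm of the others.

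The DNA just before the start of transcription shows which elements the members share. RefSeq (GRCm38.p6) windows of 250 bases were found for 8 of the 10 genes, all but Egr1 and Ier2. Both strands were searched for the CRE bound by CREB and ATF factors (TGACGTCA), its core (TGACG, which also lies inside the CRE), the AP-1 site (TGACTCA), an AP-1-like octamer (TGACATCA), the CArG box bound by SRF, TATAA and the GC box (GGGCGG). The core stood in 5 of the 8 windows (Fos, Fosb, Junb, Atf3 and Dusp1), against 17.8% of all 32851 windows of this length. The full CRE stood in 1 of 8, that of Dusp1, from 143 to 136 bases before the start, against 1.55% of all windows. The CArG box was found only in the Zfp36 window, from 58 to 49 bases before the start (1.47% of all windows), and TATAA only in that of Fos, from 33 to 29 bases before the start (22.8%). TGACTCA was in 0 of 8 windows (4.46% of all), TGACATCA in 1, that of Jun, from 45 to 38 bases before the start (2.93%), and GGGCGG in 6 (32.7%). A match describes letters and not binding. DNA further upstream than 250 bases was not searched, so a gene without a match here may have one there. The sequences of 5 genes are shown, those of Fos, Dusp1 and Atf3 from the scarce genes described below and those of Jun and Zfp36 from the abundant ones. Each runs 5′ to 3′ towards the start, and capitals mark the CRE, its core, the octamer, the CArG box or TATAA. In the Atf3 window the core is read from the opposite strand. The Fos window is chr12:85473640-85473889 on the plus strand, and those of Dusp1 (chr17:26508473-26508722), Atf3 (chr1:191183334-191183583), Jun (chr4:95052223-95052472) and Zfp36 (chr7:28379229-28379478) are on the minus strand. The RefSeq start differed from the 5′ end of the gene in the deposited table by 0 bases for Fos, 1 for Jun, 1026 for Zfp36, 34707 for Atf3 and 53657 for Dusp1. For the windows not shown it differed by 7 bases for Fosb, 29 for Junb and 1210 for Jund.
Fos: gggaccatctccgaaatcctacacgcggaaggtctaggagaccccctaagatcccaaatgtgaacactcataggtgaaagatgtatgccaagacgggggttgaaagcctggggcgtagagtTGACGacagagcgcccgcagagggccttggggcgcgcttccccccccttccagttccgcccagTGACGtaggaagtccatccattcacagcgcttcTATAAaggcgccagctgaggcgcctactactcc
Dusp1: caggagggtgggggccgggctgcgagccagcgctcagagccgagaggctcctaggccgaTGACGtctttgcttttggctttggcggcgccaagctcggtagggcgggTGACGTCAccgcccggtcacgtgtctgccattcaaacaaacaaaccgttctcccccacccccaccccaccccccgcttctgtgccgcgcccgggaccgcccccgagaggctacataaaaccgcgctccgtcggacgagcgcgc
Atf3: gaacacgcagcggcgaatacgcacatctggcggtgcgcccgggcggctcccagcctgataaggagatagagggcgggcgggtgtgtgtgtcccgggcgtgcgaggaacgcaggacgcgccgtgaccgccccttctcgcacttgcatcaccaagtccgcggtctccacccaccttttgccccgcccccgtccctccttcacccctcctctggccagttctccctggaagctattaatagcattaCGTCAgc
Jun: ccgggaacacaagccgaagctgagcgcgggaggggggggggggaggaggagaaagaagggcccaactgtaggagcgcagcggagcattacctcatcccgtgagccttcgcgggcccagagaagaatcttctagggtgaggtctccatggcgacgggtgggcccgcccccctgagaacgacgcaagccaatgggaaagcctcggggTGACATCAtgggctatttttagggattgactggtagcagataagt
Zfp36: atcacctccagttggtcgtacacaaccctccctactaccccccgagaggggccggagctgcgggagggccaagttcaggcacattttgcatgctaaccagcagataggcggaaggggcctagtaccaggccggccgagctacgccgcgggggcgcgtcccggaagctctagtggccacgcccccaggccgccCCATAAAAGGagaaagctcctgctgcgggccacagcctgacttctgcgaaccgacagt

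The 10 genes fell into an abundant and a scarce group. Since each transcript is counted at its 3′ end, cpm can be compared between genes without dividing by length. Jun (mean 55.5 cpm over the 6 libraries), Junb (55.5 cpm), Jund (40.3 cpm) and Zfp36 (23.2 cpm) stood above 80.9% or more of all listed genes. Egr1 averaged 5.34 cpm, Atf3 2.94, Ier2 2.01, Dusp1 1.94 and Fos 1.10 cpm, and Fosb averaged 0.166 cpm, with only 0.156% of listed genes lower. Jun and Junb had equal means to 3 digits. The range of Junb overlapped with that of Jund, whereas the lowest Jun value (48.9 cpm) lay above the highest Jund value (47.8 cpm). Likewise the ranges of Egr1, Atf3, Ier2, Dusp1 and Fos overlapped from each gene to the next, so the order among these neighbours does not exceed the spread between libraries. The lowest value of Zfp36 (20.2 cpm), in contrast, lay above the highest value of any of the 6 scarce genes (6.90 cpm, Dusp1). The summed level of all 10 genes was 182, 173 and 191 cpm in the Cnr1+/+ libraries and 177, 189 and 217 cpm in the Cnr1-/- libraries, and the 4 abundant genes held 90.9% to 95.1% of it.

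**Figure D1:**
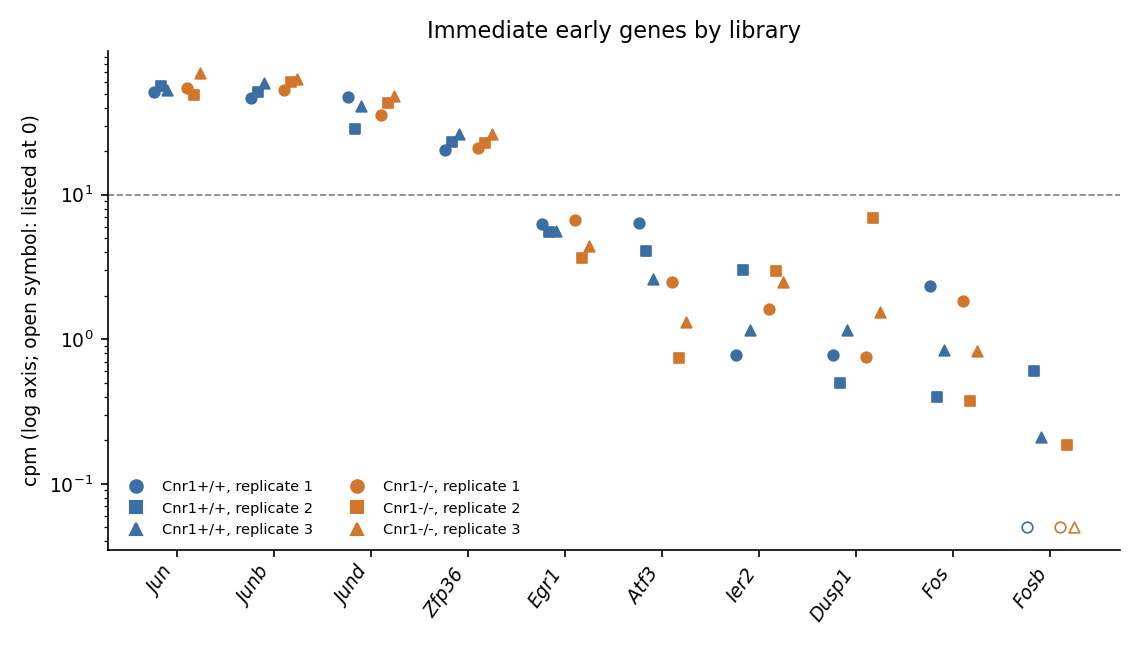
Level of each immediate early gene in each library, in cpm on a log axis, with genes ordered by their mean over the 6 libraries. Blue marks libraries labelled Cnr1+/+, orange those labelled Cnr1-/-, symbol shape gives the replicate, open symbols are values listed at 0 (drawn at the foot of the axis), and the dashed line is the minimum mean of 10 cpm for testing. Jun, Junb, Jund and Zfp36 lie above the line in every library, and the other 6 genes lie below it.

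Values were tested as log2 (cpm + 0.1) with limma, with Benjamini-Hochberg adjustment over all 6659 genes whose mean reached 10 cpm. Only the 4 abundant genes reached it. None of the 4 had a nominal p under 0.05 or values that separated the labels, where 6.02% of all tested genes had such a p (5.09% with higher and 0.931% with lower values under the Cnr1-/- label). The balance depended on the scaling: 84.5% of these genes were higher here, but 52.5%, 45.3% and 40.1% once libraries were centred on their medians, quantile normalised, or rescaled without genes of the mitochondrial genome. Groups that did not overlap were found for 8.85% of tested genes in the higher and 2.13% in the lower direction. By the stricter rule, a fold change over 1.5 together with an adjusted p under 0.1, 0 of 4 and 0.0901% of all tested genes passed. All 4 estimates were above 0, but so were those of 68.4% of all tested genes, and their median log2 fold change of 0.11 lay beside a median of 0.084 for all genes. Since 1 mouse stands behind each library, p-values rest on the spread between these 6 mice. In limma the spread of each gene is drawn towards that of genes at a similar level. The exact permutation test of 3 against 3 cannot fall below 0.1. In bulk libraries, fewer cells that express a gene and less RNA per cell cannot be told apart.

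Jun encodes c-JUN, the partner of FOS proteins in classical AP-1. Its levels were 51.4, 56.7 and 53.0 cpm in the Cnr1+/+ libraries and 54.3, 48.9 and 68.9 cpm in the Cnr1-/- libraries. The groups overlapped, with both the highest and the lowest value under the Cnr1-/- label. The log2 fold change of Cnr1-/- over Cnr1+/+ was 0.082 (SE 0.154, 95% interval −0.24 to 0.40), with a limma adjusted p of 0.963. Its sign was negative under quantile normalisation or rescaling without mitochondrially encoded genes.

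Junb, whose product is often a weaker activator than c-JUN, was at 46.6, 51.4 and 59.2 cpm in the Cnr1+/+ libraries and 52.7, 60.0 and 63.1 cpm in the Cnr1-/- libraries. The means were ordered 58.6 ± 5.32 above 52.4 ± 6.38 cpm (SD, n = 3), but the groups overlapped. Its log2 fold change was 0.16 (SE 0.151, 95% interval −0.15 to 0.47), with a limma adjusted p of 0.910. The 3′ end of Junb overlaps the 3′ end of Prdx2, a peroxidase gene on the opposite strand, by 352 bases, and whether the counting used the strand is not stated in the sources used here. Prdx2 ranged from 28.8 to 49.6 cpm and was highest in Cnr1-/- replicate 2. Junb stood at 60.0 cpm there, below its highest value of 63.1 cpm in Cnr1-/- replicate 3. Whether reads of Prdx2 were counted for Junb was not tested.

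Jund encodes the JUN protein that resting cells keep at a steady level. It stood at 47.1, 28.3 and 40.8 cpm in the Cnr1+/+ libraries and at 35.3, 42.7 and 47.8 cpm in the Cnr1-/- libraries. The Cnr1+/+ libraries alone spanned nearly the whole range. Its log2 fold change was 0.13 (SE 0.184, 95% interval −0.24 to 0.51), with a limma adjusted p of 0.953. The within-group SD of Jund, 0.309 on the log2 scale, was larger than that of 77.7% of tested genes, whereas those of Jun (0.187), Zfp36 (0.174) and Junb (0.155) were below the median gene at 0.215.

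Zfp36 had the smallest difference of the 4. It stood at 20.2, 23.0 and 26.3 cpm in the Cnr1+/+ libraries and at 21.0, 22.8 and 26.1 cpm in the Cnr1-/- libraries. The log2 fold change was 0.0084 (SE 0.194, 95% interval −0.39 to 0.41), with a limma adjusted p of 0.995, and its sign turned negative under all 3 other scalings. The 95% intervals of all 4 genes lay within a 1.5-fold change in either direction.

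**Figure D2:**
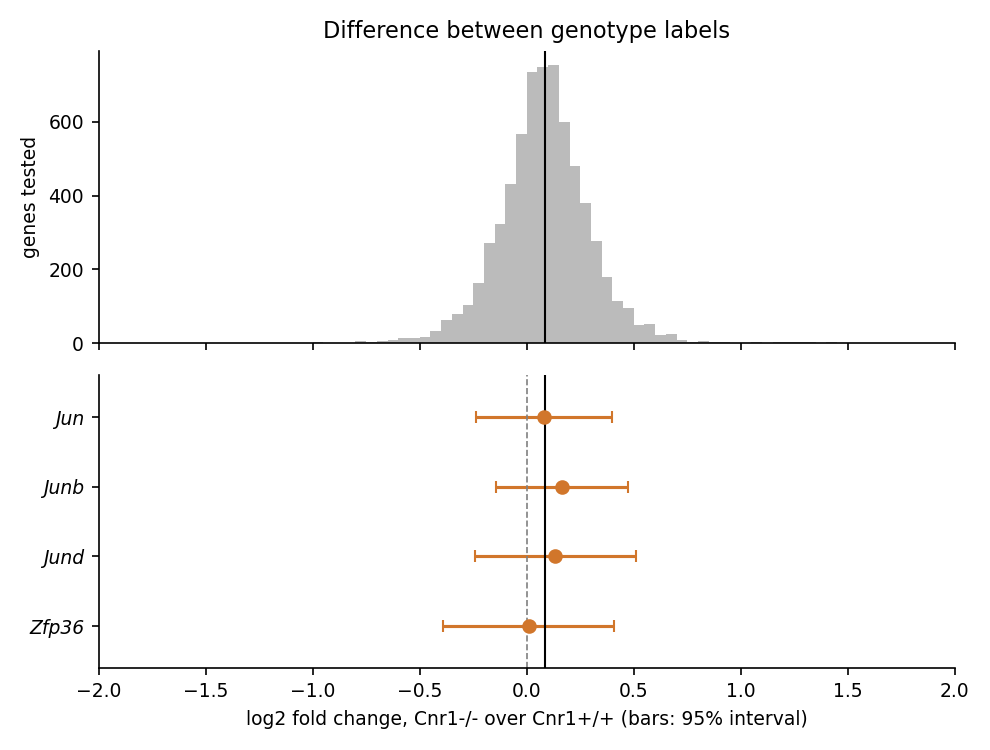
Log2 fold change of the libraries labelled Cnr1-/- over those labelled Cnr1+/+ for all 6659 tested genes (upper panel, number of genes per bin) and for Jun, Junb, Jund and Zfp36 (lower panel, points with 95% intervals from limma). The black line is the median of all tested genes at 0.084 and the dashed line is 0, and each of the 4 intervals spans both.

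The 6 scarce genes rest on few reads. Fos, whose product joins JUN in AP-1 and is the usual mark of recent stimulation, was at 2.33, 0.399 and 0.841 cpm (18, 4 and 8 reads) in the Cnr1+/+ libraries. It was at 1.84, 0.373 and 0.835 cpm (17, 4 and 7 reads) in the Cnr1-/- libraries. Both labels held 1 high library and 2 low ones, and the groups overlapped (two-sided exact permutation p = 0.7). Fosb, a related partner of JUN, was listed at 0 in 3 of 6 libraries and reached at most 6 reads, in Cnr1+/+ replicate 2 (0.599 cpm), so that no difference was detectable at this depth.

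Egr1 and Ier2 overlapped between the labels as well. Egr1 stood at 6.23, 5.49 and 5.57 cpm in the Cnr1+/+ libraries and at 6.71, 3.64 and 4.41 cpm in the Cnr1-/- libraries (two-sided exact permutation p = 0.4). The highest and the lowest value both came from Cnr1-/- libraries. Ier2, which encodes a nuclear protein induced by growth factors, was at 0.778, 2.99 and 1.16 cpm against 1.62, 2.98 and 2.50 cpm (two-sided exact permutation p = 0.4). The highest values of both labels, 2.99 and 2.98 cpm, were nearly equal.

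Atf3 was the only member whose groups did not overlap. It encodes a CREB-family factor that stress and injury induce and that often represses its targets. The Cnr1+/+ libraries held 6.36, 4.09 and 2.63 cpm (49, 41 and 25 reads) and the Cnr1-/- libraries 2.49, 0.746 and 1.31 cpm (23, 8 and 11 reads). All 3 Cnr1-/- libraries were lower, yet the nearest values, 2.63 and 2.49 cpm, rest on 25 and 23 reads. The means were 4.36 ± 1.88 and 1.52 ± 0.890 cpm (SD, n = 3), or 2.88 times higher under the Cnr1+/+ label, and the two-sided exact permutation p was 0.1, the smallest this design allows. Among all 19225 listed genes, 3.57% were lower in the Cnr1-/- libraries with no overlap, and 6.56% were higher with no overlap. When limma was run without the filter on low values, the log2 fold change of Atf3 was −1.53 (SE 0.586, 95% interval −2.71 to −0.34) with a nominal p of 0.0126, where 5.17% of all genes fell under 0.05, and an adjusted p of 0.831. The nominal p lay above 0.05 without Cnr1+/+ replicate 1 (0.0972), Cnr1+/+ replicate 2 (0.0510) or Cnr1-/- replicate 2 (0.0772). The direction was the same each time, with log2 fold changes of −1.21, −1.53 and −1.13. Atf3 was lowest in Cnr1-/- replicate 2, which also had the highest neutrophil markers, and their part in its value was not tested.

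Dusp1 was high in a single library. It was at 0.778, 0.499 and 1.16 cpm (6, 5 and 11 reads) in the Cnr1+/+ libraries and at 0.758, 6.90 and 1.55 cpm (7, 74 and 13 reads) in the Cnr1-/- libraries. Cnr1-/- replicate 2 stood 4.45-fold above the next library, and the other 5 overlapped between the labels. The ratio of the means was 3.78 with this library and 1.42 without it. Without the filter in limma, Dusp1 had a log2 fold change of 1.30 and a nominal p of 0.108 (limma adjusted p = 0.957). Leaving out Cnr1-/- replicate 2 gave 0.45 and a nominal p of 0.615. The nominal p was 0.0348 without Cnr1-/- replicate 1, the 1 library whose removal brought it under 0.05. Cnr1-/- replicate 2 also held the high neutrophil and erythrocyte marker sums, and their part in its Dusp1 value was not tested. None of the other 9 members was highest in it, and it had the lowest Jun, Egr1, Atf3 and Fos values of all 6 libraries. The annotated Dusp1 gene also shares 641 bases with Ergic1, on the opposite strand, at the annotated 5′ ends of both genes. Ergic1 stood at 25.7 cpm in this library and at 23.1 to 33.2 cpm in the other 5.

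**Figure D3:**
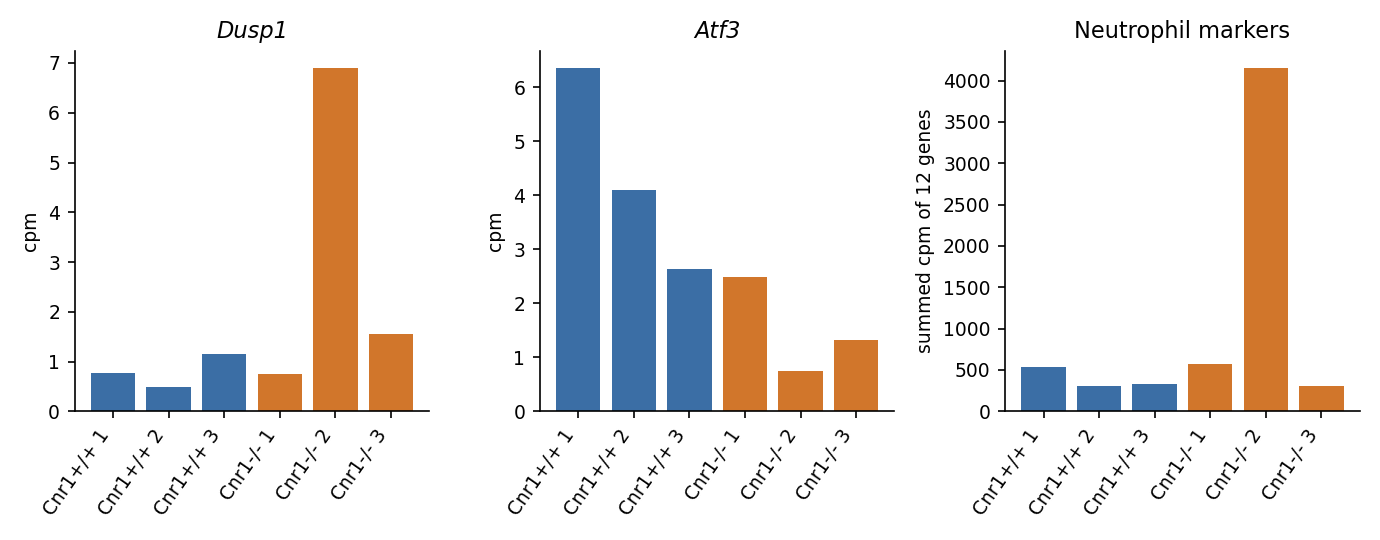
Level of Dusp1 and Atf3 (cpm) and the summed level of 12 neutrophil markers (cpm) in each library, with blue bars for Cnr1+/+ and orange bars for Cnr1-/-. Dusp1 and the neutrophil sum are both highest in Cnr1-/- replicate 2, at 6.90 and 4153 cpm, and Atf3 is lower in each Cnr1-/- library than in any Cnr1+/+ library.

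Within the AP-1 family the JUN side outweighed the FOS side in every library. Jun, Junb and Jund together stood at 136 to 180 cpm, against 5.78 to 8.77 cpm for Fos, Fosb and Fosl2, a ratio of 16.3 to 26.5. Fosl2, which encodes FRA2, averaged 6.54 cpm and so held most of the FOS side. Of the 5 other listed AP-1 genes only Batf3, a partner of JUN in myeloid cells, reached the minimum (mean 11.9 cpm, log2 fold change −0.27, limma adjusted p = 0.931). None of the 4 tested AP-1 genes had a nominal p under 0.05. Batf, a related factor of lymphoid and myeloid cells, was scarce but did not overlap between the labels, at 1.30 to 1.58 cpm in the Cnr1+/+ libraries and 2.27 to 3.17 cpm in the Cnr1-/- libraries (two-sided exact permutation p = 0.1). Of all listed genes, 6.56% had such a separation with higher values under the Cnr1-/- label.

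Each of the 2 feedback members, Dusp1 and Zfp36, had far more abundant relatives. Dusp6, a cytoplasmic phosphatase for ERK, ranged from 346 to 436 cpm and was 52.4 times as high as Dusp1 in Cnr1-/- replicate 2 and 281 to 693 times in the other libraries. The log2 fold change was 0.13 for Dusp6 (limma adjusted p = 0.910). Its values, 346 to 357 cpm in the Cnr1+/+ and 362 to 436 cpm in the Cnr1-/- libraries, did not overlap. The same held for 8.85% of all tested genes in this direction. Zfp36l1 and Zfp36l2, which encode the paralogues of tristetraprolin, were 5.33 to 7.76 and 7.11 to 11.1 times as high as Zfp36. Neither paralogue had a nominal p under 0.05, with log2 fold changes of 0.043 and 0.099. Among 9 tested genes of feedback inhibitors (21 listed), 3 had a nominal p under 0.05, all with higher values under the Cnr1-/- label, beside 5.09% of all tested genes. They were Nfkbia, which holds NF-κB in the cytoplasm (log2 fold change 0.55, limma adjusted p = 0.494), Dusp16, a JNK and p38 phosphatase (0.68, adjusted p = 0.792), and Per1, a clock repressor (0.74, adjusted p = 0.705). Per1 was at 22.3 and 21.9 cpm in Cnr1-/- replicates 1 and 2 and at 10.4 cpm in replicate 3, within the 9.47 to 10.9 cpm of the Cnr1+/+ libraries. Nfkbia and Dusp16 were highest in Cnr1-/- replicate 2. Without this library 1 of the list's tested genes kept a nominal p under 0.05, Nfkbia (log2 fold change 0.43, nominal p of 0.0131, limma adjusted p = 0.999). The nominal p was then 0.146 for Dusp16 (log2 fold change 0.43) and 0.0818 for Per1 (log2 fold change 0.57).

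**Figure D4:**
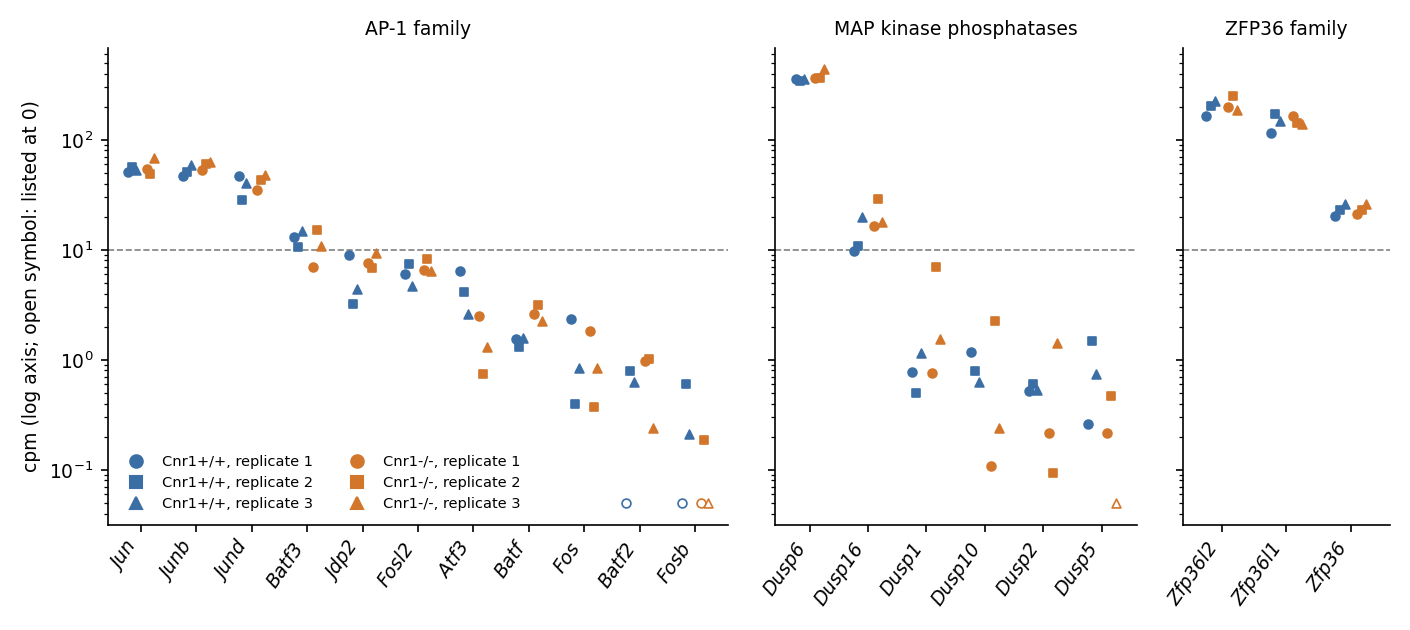
Levels of AP-1 family genes, MAP kinase phosphatases and ZFP36 family genes in each library (cpm, log axis), with colours and symbols as in the plot of levels by library and open symbols for values listed at 0. Jun, Junb and Jund lie above Fos, Fosb and Fosl2, Dusp6 above Dusp1, and Zfp36l1 and Zfp36l2 above Zfp36 in all 6 libraries.

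Most other immediate early genes were scarce too. Of 26 listed beside Egr1 and Ier2, 20 had means below 10 cpm, from 0.237 cpm for Npas4, a neuronal activity factor, to 8.08 cpm for Klf2. Nr4a1, a nuclear receptor that stimulation induces like Fos, averaged 2.02 cpm. The 6 tested genes were Rhob, Sgk1, Ier5, Btg1, Klf6 and Btg2, and 2 of the 6 had a nominal p under 0.05, both higher under the Cnr1-/- label (5.09% of all tested genes). Rhob, a small GTPase of endosomes, was at 282, 221 and 306 cpm against 343, 334 and 326 cpm, with no overlap (log2 fold change 0.32, limma adjusted p = 0.792), as for the 8.85% of tested genes above. Sgk1, a kinase that glucocorticoids induce, differed by 0.36 on the log2 scale, without passing the adjustment (limma adjusted p = 0.792), with 138 and 136 cpm in Cnr1-/- replicates 1 and 2 and 95.4 cpm in replicate 3, inside the Cnr1+/+ range of 89.3 to 99.4 cpm. Sgk1 had a nominal p of 0.0921 without Cnr1-/- replicate 2, and the nominal p lay above 0.05 for Sgk1 under all 3 other scalings and for Rhob under quantile normalisation (0.0712) and rescaling (0.0743). Under each of the 3 scalings Ier5 instead had a nominal p under 0.05 with lower values under the Cnr1-/- label (log2 fold change −0.29 to −0.26). There 2.67% to 3.19% of all tested genes were called in this direction. The median log2 fold change of these 6 genes was 0.049, beside 0.084 for all tested genes, and −0.050 to −0.026 under the other scalings.

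The genes that act before and after the members were also compared. Of 21 tested kinases, transcription factors and coactivators upstream (26 listed), 0 had a nominal p under 0.05, beside 6.02% of all tested genes. Under each of the 3 other scalings 1, Rps6ka1, had one with lower values (log2 fold change −0.29 to −0.27). There 2.67% to 3.19% of all tested genes were called in this direction. The most abundant of the 21 were Crebbp (131 cpm), Rps6ka1 (121 cpm) and Ep300 (93.4 cpm). The mRNA of Srf was scarce, at a mean of 1.27 cpm, while that of Creb1 averaged 65.5 cpm. Of 14 tested genes for the decay machinery that tristetraprolin recruits or competes with, 0 had a nominal p under 0.05 (6.02% of all tested genes). Among 14 listed cytokine and chemokine targets, 12 had means under 10 cpm, including Tnf at 1.17 cpm, and neither Ccl12 nor Cxcl16, the 2 tested, had such a p. Groups did not overlap for 3 of the 14, all higher under the Cnr1-/- label (6.56% of all listed genes): Ccl2 (mean 1.16 against 2.18 cpm), Cxcl10 (0.200 to 1.17 against 2.05 to 4.29 cpm) and Il1b (1.43 to 2.52 against 4.76 to 9.79 cpm). Il1b and Ccl2 were highest in Cnr1-/- replicate 2, and without it their Cnr1-/- values of 4.76 to 4.77 and 1.73 to 1.91 cpm still lay above the Cnr1+/+ values. Heat shock genes, which dissociation can also induce, included Hspa1a at 0 to 1.19 cpm and Hspa1b at 0 to 1.05 cpm. Of 9 tested heat shock genes, 8 had estimates below 0 (median log2 fold change −0.12), where 68.4% of all tested genes lay above 0 with a median of 0.084. A nominal p under 0.05 was found for 1 of the 9 (0.931% of all genes in this direction) and for 2, 4 and 3 after centring, quantile normalisation and rescaling, where 2.67%, 2.96% and 3.19% of all tested genes were called in this direction. In the authors' scaling it was Hspa8, a constitutive chaperone, at −0.33 (limma adjusted p = 0.792).

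The genes closest in pattern to the 4 abundant members were found from log2 values centred over the 6 libraries, by the smallest root mean square difference from the members' mean. They were Kmt2a (0.0352), Akap8l (0.0381), Nrros (0.0428), Srsf11 (0.0442) and Tbc1d22a (0.0457), against a median of 0.219 for all tested genes. As the smallest differences among all tested genes, they lie below the median by selection. Whether these genes are linked to the members was not tested. The members' mean profile spanned 0.378 on the log2 scale, lowest in Cnr1+/+ replicate 2 (−0.14) and highest in Cnr1-/- replicate 3 (0.24). Cnr1-/- replicate 3 gave the highest value for 3 of the 4 abundant members, Jun, Junb and Jund. Jun also shares 690 bases with the antisense long non-coding RNA Junos, at the annotated 5′ ends of both genes. Junos ranged from 0.0933 to 2.86 cpm, far below Jun. Both genes were highest in Cnr1-/- replicate 3 and lowest in Cnr1-/- replicate 2, and reads from the opposite strand were not tested.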

How the data were processed

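Polyadenylated RNA of CD11b+ cells was sequenced from its 3′ ends (QuantSeq FWD). The authors aligned reads with STAR to mm10, quantified genes by expectation-maximisation in Partek and normalised them by TMM; the deposited values are CPM (cpm). An effective, TMM-scaled depth per library was derived from the cpm of 1 read, and listed genes held 50.1% to 59.1% of each scaled total, so a count model was not used. Groups followed the sample labels. Log2 (cpm + 0.1) was tested with limma 3.58.1 (eBayes with trend, R 4.3.3) where the mean reached 10 cpm, in a model with genotype alone, and single genes by a two-sided exact permutation test (scipy 1.17.1). The steps were tested on simulated data. Members and lists were chosen with earlier results of these data known. Named were the members, of each pathway and marker list the 3 most abundant genes and those whose nominal p was under 0.05, the 5 genes nearest in pattern, and genes overlapping a member. Others (among them Npas4, Klf2, Nr4a1, Srf, Creb1, Tnf, Il1b, Ccl2, Cxcl10, Batf, Batf3, Btg1, Btg2, Klf6, Hspa1a, Hspa1b and Fosl2) were named after their values were seen. The motif TGACATCA was added after the sequences were seen. Alternatives were a pseudocount of 1, no filter, a minimum mean of 20, 3 other scalings, eBayes without trend, vooma weights, a block for the replicate number, and fits lacking each library in turn. For the 6 members below the minimum mean, each was run without the filter. Fits of the called list genes under the other scalings and without Cnr1-/- replicate 2 were added after seeing the data. The marker lists not described above were border-associated macrophage (101 to 151 summed cpm), lymphocyte (0 to 1.77), neuron (56.5 to 78.4), oligodendrocyte (420 to 853), astrocyte (298 to 549) and endothelial (16.5 to 27.1).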

Additional observations from a re-analysis of the deposited data

How the results depend on the processing

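No alternative brought Jun, Junb, Jund or Zfp36 to a nominal p under 0.05 (lowest 0.123, Junb). The sign of Zfp36 turned when libraries were centred on their medians (−0.067), under quantile normalisation (−0.066) and after rescaling without mitochondrially encoded genes (−0.091), and that of Jun under the latter 2 (−0.014 and −0.017). Leaving out each library gave log2 fold changes of −0.058 to 0.19 for Jun, −0.075 to 0.29 for Jund and −0.085 to 0.10 for Zfp36. Of all tested genes, 401 had a nominal p under 0.05 (993 with no filter, 263 at a minimum mean of 20, 251 to 600 with a library left out), and 84.5% of them were higher in Cnr1-/-, against 52.5%, 45.3% and 40.1% under the 3 other scalings. The stricter rule gave 6 genes, 14 with no filter, 0 under each of the 3 other scalings, 0 without a trend and 1 to 24 with a library left out. Groups did not overlap for 731 genes (1948 with no filter, 480 at a minimum mean of 20, 1155 to 1729 with a library left out, where fewer samples make separation easier). With no filter, 1 member had a nominal p under 0.05, Atf3. Same-numbered libraries did not deviate together (r = −0.0557, −0.0316 and −0.0308), and with the replicate number as a block 421 genes had a nominal p under 0.05. The 6 scarce genes were not tested with the filter on low values.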
